A study of Mus musculus with 4 samples.

Results

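The insulin and insulin-like growth factor (IGF) genes described here are 9 genes of the 46517 in the deposited tables: the receptors *Insr*, *Igf1r* and *Igf2r*, the receptor adaptors *Irs1* and *Irs2*, and the binding proteins *Igfbp3*, *Igfbp4*, *Igfbp5* and *Igfbp7*. They were listed by name, with earlier results of these data known, and were left out of the clustering that formed the classes of wells. They were measured by Smart-seq2, a plate method with 1 sorted cell per well and no molecular identifiers on the reads, in wild-type endothelial cells (ECs) of the ear dermis. CD31+/CD45-/Lyve1- cells of adult female C57Bl/6 mice (12 to 26 weeks in the labels, pools of 6) were sorted into 4 plates of 384 wells, plates A and B of 2 replicates, with no treatment or mutant group. The study's methods give a younger age range and the J substrain. After filtering, 397 of 1536 wells fell into 4 classes: artery-like (26 wells in replicate 1 and 21 in replicate 2), capillary-like (137 and 13), vein-like (39 and 34) and lymphatic (17 and 110). The first 3 are blood vascular EC (BEC) classes. Both replicates contribute 1 value per class, so differences rest on 2 values a class, and the p-values measure the spread between these samples only.

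Insulin and the IGFs act through receptor tyrosine kinases. The insulin receptor (*Insr*) and the IGF1 receptor (*Igf1r*) phosphorylate adaptor proteins such as *Irs1* and *Irs2*, which link them to PI3-kinase, Akt and the Foxo transcription factors. The IGF2 receptor (*Igf2r*), which is also the cation-independent mannose 6-phosphate receptor, has no kinase activity and delivers IGF2 to lysosomes. IGF binding proteins hold IGFs in the extracellular fluid and so limit or prolong their action, and IGFBP7 is a related secreted protein that binds IGFs weakly and is deposited in the vascular basement membrane.

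The classes were named from marker genes, so marker levels describe them and do not test them. The summed level of 14 artery markers averaged 6663 and 8680 CPM (reads of a gene scaled to the total gene reads of its well) in artery-like wells of replicates 1 and 2, and 1198 to 2456 in capillary-like and vein-like wells. The summed level of 12 capillary markers averaged 11135.5 CPM in artery-like wells of replicate 1, above their artery sum. It was 2349.83 CPM in artery-like wells of replicate 2, and 17164.8 and 14254.5 CPM in capillary-like wells. The artery-like class was therefore not alike in the replicates. The lymphatic cluster as a whole had all 10 lymphatic markers raised, although the sort was gated against Lyve1. The lymphatic wells of the replicates differed in kind. In replicate 1, 14 of 17 belonged to a sub-cluster with *Cldn11* and *Gdf10*. In replicate 2, all but 7 of 110 belonged to one with *Reln*, *Lyve1* and *Piezo2*. Single wells did not all hold each marker. *Lyve1* was read in 14.3% of the *Cldn11* wells of either replicate, and *Prox1* in all of them. In the other sub-cluster *Lyve1* was read in 33.3% and 84.5% of wells in replicates 1 and 2, and *Prox1* in 66.7% and 68.9%. Marker reads of mural cells (12 markers of pericytes and smooth muscle, all detected in 7 of the 8 class and replicate groups and 10 of them in capillary-like wells of replicate 2) summed to 1384 to 2485 CPM in BEC classes of replicate 1, to 255 to 907 in those of replicate 2, and to 404 and 308 in lymphatic wells. Depth also differed between the classes: in replicates 1 and 2 the median gene reads per well were 129678 and 163024 in artery-like, 137422 and 79507 in capillary-like, 242367 and 253620 in vein-like and 129515 and 68195 in lymphatic wells.

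Of the 9 genes, 8 had an entry among the RefSeq promoters (GRCm38.p6), and the sequences before the start sites of the 3 binding protein genes whose lymphatic level differed in the test are shown so that these genes can be compared at the sequence level. They are written 5′ to 3′ on the strand of the gene, without transcribed bases, and capitals mark matches to a TATA box (TATANA) or a GC box (GGGCGG), searched on both strands; matches to TATANA on opposite strands overlap in *Igfbp3*.
Igfbp3 (minus strand, chr11:7213924-7214173): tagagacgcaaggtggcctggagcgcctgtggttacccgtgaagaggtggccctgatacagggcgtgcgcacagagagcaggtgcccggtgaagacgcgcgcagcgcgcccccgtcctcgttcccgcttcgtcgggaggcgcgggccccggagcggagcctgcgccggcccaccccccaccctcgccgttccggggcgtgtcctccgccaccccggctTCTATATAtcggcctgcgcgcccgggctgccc
Igfbp5 (minus strand, chr1:72874885-72875115): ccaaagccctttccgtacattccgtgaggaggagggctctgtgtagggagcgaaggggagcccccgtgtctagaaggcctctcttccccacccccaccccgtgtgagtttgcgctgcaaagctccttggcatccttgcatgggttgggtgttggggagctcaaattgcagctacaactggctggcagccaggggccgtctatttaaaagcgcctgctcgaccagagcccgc
Igfbp7 (minus strand, chr5:77408046-77408295): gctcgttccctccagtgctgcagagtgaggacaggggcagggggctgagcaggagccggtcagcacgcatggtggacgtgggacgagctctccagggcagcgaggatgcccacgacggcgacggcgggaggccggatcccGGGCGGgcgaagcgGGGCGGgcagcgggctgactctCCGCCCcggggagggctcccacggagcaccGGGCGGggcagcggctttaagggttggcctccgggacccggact
*Igfbp3* held 2 overlapping TATANA matches that began 32 and 30 bases before the start and no GC box, *Igfbp7* held 4 GC boxes and no TATANA match, and *Igfbp5* held neither in its 231 bases. Among 32851 promoters, 22.6% held a TATANA match and 32.7% a GC box within 250 bases. A forkhead element (GTAAACA, both strands), the kind of site bound by Foxo factors, was found in 3.17% of all promoters and in none of these 3. No promoter activity was measured in these cells.

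In the annotation of the same build (GENCODE vM21), *Igfbp3* (ENSMUSG00000020427) lies at chr11:7206086-7213923 and *Igfbp5* (ENSMUSG00000026185) at chr1:72857932-72874884, both on the minus strand. *Igfbp7* (ENSMUSG00000036256, chr5:77349240-77408041, minus strand) shares 85 exon bases with *Polr2b*, an RNA polymerase II subunit gene on the opposite strand. *Insr* (ENSMUSG00000005534) lies at chr8:3122061-3279617 and *Irs1* (ENSMUSG00000055980) at chr1:82233101-82291416, where it shares 2822 exon bases with *Gm9747* on the opposite strand. The libraries do not record strand. *Irs1* and *Gm9747* had the same number of reads in 13 of the 20 wells with a read of either, so reads on shared bases cannot be assigned to one of them.

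The receptor *Insr* was highest in vein-like wells of both replicates. Its mean level there was 134 CPM in replicate 1 and 239 CPM in replicate 2 (187 ± 74.8, SD, n = 2), against 29.2 and 54.6 CPM in artery-like wells, 31.3 and 2.96 CPM in capillary-like wells and 0.818 and 5.72 CPM in lymphatic wells. Vein-like values lay above those of every other class in both replicates. By plate they ranged from 95.1 to 284 CPM and overlapped with the artery-like wells, which reached 149 CPM on plate A of replicate 2. Most of the artery-like level came from single wells: 1 well of replicate 1 held 96.4% of it, and without that well the level was 1.08 CPM. In vein-like wells of replicate 2 the highest well, at 3255 CPM, held 40.0%, and the level without it was 148 CPM. With the limit on non-BEC genes at 300 CPM, the capillary-like mean of replicate 2 was 55.9 CPM (19 wells) and the artery-like mean of replicate 1 was 1.20 CPM (19 wells), and vein-like wells were still highest, at 132 and 229.9 CPM. The share of wells at 100 CPM or more was 38.5% (15 of 39, 95% exact binomial interval 23.4 to 55.4%) and 35.3% (12 of 34, 19.7 to 53.5%) in vein-like wells, compared with 3.85% and 9.52% in artery-like wells. Capillary-like wells reached that level in 7.30% and 0%, and lymphatic wells in 0% and 0.909%.

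These differences of *Insr* did not pass the test. In the fit over all genes (edgeR quasi-likelihood test on counts summed per class and replicate, Benjamini-Hochberg adjusted over 14694 genes), the artery-like level was lower than the vein-like one by a log2 fold change of -2.32 (SE 1.56, adjusted p = 0.922), with -3.07 and -1.78 within the replicates. The lymphatic level differed from the mean of the BEC classes by -4.17 (SE 1.61, adjusted p = 0.373), with the same sign in both replicates. That difference passed the threshold in 2 alternatives, DESeq2's Wald test (adjusted p = 0.00437) and classes from marker scores (0.0313), and its adjusted p ranged up to 1 over the others. The capillary-like difference was -1.68 (SE 1.48, adjusted p = 0.983). Over the wells of the 4 classes, the genes most like *Insr* were *Plvap*, a component of fenestral and caveolar diaphragms, with Spearman's rho of 0.34 and 0.37 within the replicates, and the receptor tyrosine kinase gene *Ret*, with 0.33 and 0.47, among 6343 genes compared; wells of a plate share library preparation and depth, and vein-like cells were among those compared.

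**Figure D1:**
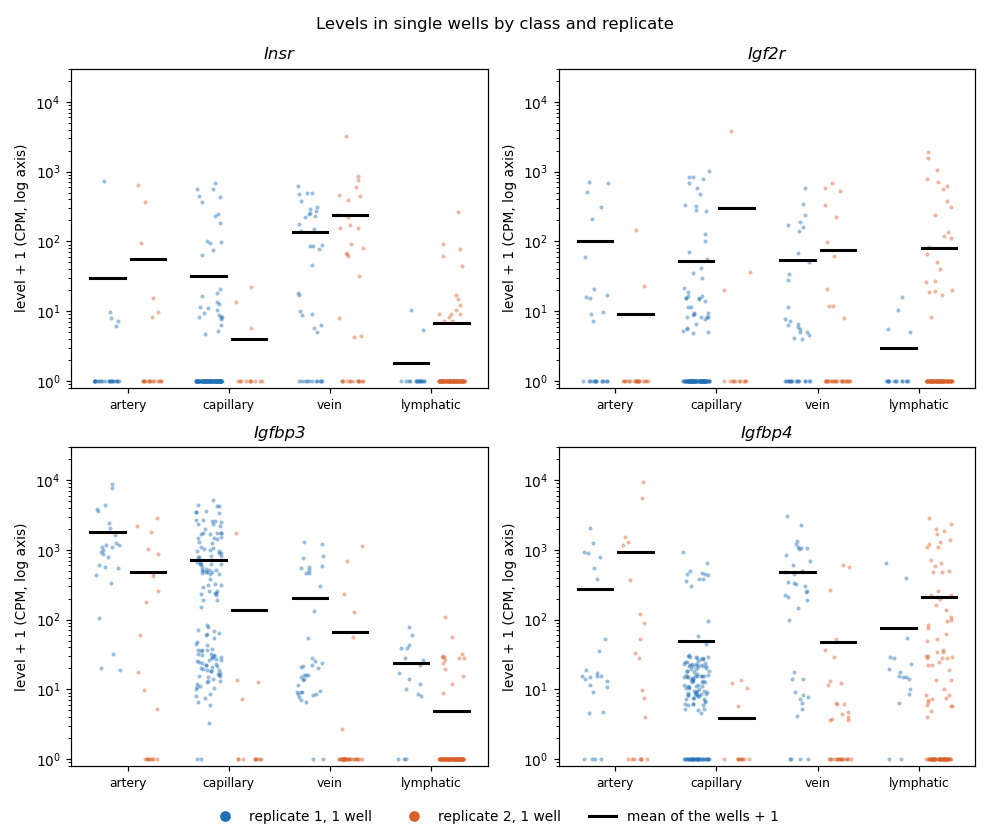
Levels of *Insr*, *Igf2r*, *Igfbp3* and *Igfbp4* in single wells (points, CPM + 1 on a log axis) by class, with replicate 1 in blue and replicate 2 in orange; black bars are means over wells. Vein-like wells have the highest mean *Insr* in both replicates and artery-like wells the highest mean *Igfbp3*, while the high *Igf2r* mean of capillary-like wells in replicate 2 follows a single well at 3822 CPM.

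*Igf1r* was low in all classes and showed no order that both replicates shared. Its means were 31.6 and 3.17 CPM in artery-like, 20.3 and 13 CPM in capillary-like, 33.1 and 25.9 CPM in vein-like and 14.6 and 29.1 CPM in lymphatic wells. Single wells held much of these means: without the highest well the artery-like mean of replicate 1 was 5.78 CPM, the vein-like mean of replicate 2 was 8.79 CPM, and the lymphatic means were 0.543 and 10.4 CPM. After each well was thinned to 20000 reads, 4 to 16.7% of wells had a read. None of the 3 differences passed the test (artery-like minus vein-like log2 fold change -2.11, SE 2.01; capillary-like 0.02, SE 1.55; lymphatic 0.38, SE 1.48; adjusted p of at least 0.998 in edgeR's test).

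*Igf2r* was read in some wells of every class. Vein-like wells were the most even, at 53.3 and 74.9 CPM. Artery-like wells had 99.3 and 8.02 CPM, capillary-like wells 52.1 and 298 CPM and lymphatic wells 1.94 and 80.6 CPM, so no class was highest in both replicates. The 298 CPM of capillary-like wells in replicate 2 came to 98.6% from 1 of 13 wells, and the other wells averaged 4.52 CPM. The log2 fold changes were 0.57 (SE 1.53) for artery-like minus vein-like, 1.06 (SE 1.37) for capillary-like and -1.89 (SE 1.5) for lymphatic wells, with adjusted p of 1, 0.983 and 0.814 (edgeR), and the replicates pointed in opposite directions in all 3.

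The adaptors *Irs1* and *Irs2* were at the limit of detection. The highest mean of *Irs1* in a class and replicate was 2.20 CPM, in capillary-like wells of replicate 1, where 11 of 137 wells had a read, and the others were 1.41 CPM or less. That mean rested on 1 well of 212 CPM and was 0.654 CPM without it, and the 1.41 CPM, in artery-like wells of replicate 2, came from 1 read, so the classes have no order here. *Irs2* was read in 10 of the 397 wells, in none of the 127 lymphatic wells and in no BEC well of replicate 2. A count of 0 in the 110 lymphatic wells of replicate 2 allows a share of wells with a read of up to 2.73%, and 0 of 17 in replicate 1 allows 17.6%; these limits cover counting error only. Neither gene reached 10 counts in 2 of the 8 sums, so neither was tested and 7 of the 9 genes were.

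*Igfbp3*, the main IGF carrier of the circulation, was highest in artery-like wells and lowest in lymphatic wells of both replicates. Artery-like wells averaged 1782 and 482 CPM, capillary-like wells 722 and 137 CPM, vein-like wells 206 and 65.7 CPM and lymphatic wells 23.2 and 3.96 CPM in replicates 1 and 2. The order of the 4 classes was the same in both replicates, and each class was higher in replicate 1. In replicate 2 the place of the capillary-like class rested on 1 well of 1751 CPM, since the other 12 averaged 2.55 CPM, below the vein-like and the lymphatic level. By plate, artery-like wells ranged from 471 to 1904 CPM and vein-like wells from 59.6 to 223 CPM, without overlap.

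The artery-like excess of *Igfbp3* over vein-like wells was a log2 fold change of 3.08 (SE 0.63), with 3.02 and 3.12 within the replicates, but its adjusted p was 0.264 in edgeR's test (0.000362 before adjustment). In this comparison 4 of 14694 genes were called (0.0272%), and none of the 7 genes tested; *Igfbp3* alone had an unadjusted p under 0.05 here, and DESeq2 and limma also called none. The adjusted p of *Igfbp3* ranged from 0.00401 to 1 over 15 alternative fits and passed the threshold in 2, without the filter on low counts and with wells thinned to 20000 reads (0.0104). The artery-like cluster also had 4 of the 12 mural markers raised (*Acta2*, *Myh11*, *Notch3* and *Mylk*), against 1 in the vein-like cluster, with mural sums of 2485 and 907 CPM against 1384 and 692 CPM. Only wells with a mural marker sum under 500 CPM were then kept, a choice made after seeing the data. In them the difference of *Igfbp3* was 3.07 (adjusted p = 0.236, edgeR). The limit left 9 of 26 artery-like wells in replicate 1 and 14 of 21 in replicate 2. Wells under it can still hold mural reads, and whether such reads contribute to the difference was not tested. In lymphatic wells the gene was lower than in the BEC classes by a log2 fold change of -5.58 (SE 0.68, adjusted p = 0.00118, edgeR), with -4.87 and -6.33 within the replicates. With the limit on non-BEC genes lowered to 10 CPM, which left 1 lymphatic and 0 artery-like wells in replicate 1, the difference was -6.34 and its adjusted p 0.0832. Capillary-like wells did not differ from the average of the other BEC classes in the fit (0.03, SE 0.50, adjusted p = 1).

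Low counts of *Igfbp3* were spread widely in replicate 1. One cluster outside the 4 classes (16 and 111 wells, median 83173 and 14555 reads) was led by *Col5a2*, *Myl9* and *Col6a3*. It had 7 of 12 mural and 3 of 8 fibroblast markers raised. The naming rule called it mural, but with fibroblast markers raised too it is left unnamed here. Other clusters, which the rule itself did not name (116 and 218 wells), are not described. A read was found in 82.4% of lymphatic wells and 87.5% of the wells of this unnamed cluster in replicate 1, with medians of 16.0 and 31.3 CPM, but in 12.7% and 12.6% of those in replicate 2. After thinning to 20000 reads the lymphatic shares were 17.6% (3 of 17, 3.80 to 43.4%) and 6.00% (6 of 100, 2.23 to 12.6%). The artery-like shares were 100% and 61.9% before thinning and 96.2% and 42.9% after it. At 100 CPM or more, 88.5% and 42.9% of artery-like, 53.3% and 7.69% of capillary-like, 30.8% and 11.8% of vein-like and 0% and 0.909% of lymphatic wells were counted, which left the lymphatic class lowest by either measure.

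*Igfbp4*, an inhibitor of IGF action that is cleaved by the protease Pappa, was lowest in capillary-like wells. They averaged 49.2 and 2.95 CPM, against 274 and 931 CPM in artery-like, 473 and 47.5 CPM in vein-like and 75.7 and 207 CPM in lymphatic wells. The capillary-like means were below those of the other classes in both replicates. Without its highest well, however, the lymphatic mean of replicate 1 was 39.8 CPM, below the capillary-like mean, and by plate the classes overlapped, with 16.1 CPM in lymphatic against 55.0 CPM in capillary-like wells on plate B of replicate 1 and 1.65 CPM in vein-like against 3.38 CPM in capillary-like wells on plate B of replicate 2. The 7 *Cldn11* lymphatic wells of replicate 2 had 2.02 CPM. At the limit of 300 CPM the capillary-like mean of replicate 2 was 55.3 CPM, beside 57.5 CPM in vein-like wells. The highest class was vein-like in replicate 1 and artery-like in replicate 2. In replicate 2, 48.2% of the artery-like level came from 1 well of 9430 CPM. The capillary-like difference was -3.91 on the log2 scale (SE 1.28, adjusted p = 0.983, 0.00991 before adjustment, edgeR), with -2.88 and -5.01 within the replicates. In this comparison 0 of 14694 genes were called (0%), with 588 at an unadjusted p under 0.05, of which *Igfbp4* was the only 1 among the genes described; DESeq2 called 177 genes (1.49% of those with an adjusted p) and limma 0, none of them among the 9. Without the low-count filter *Igfbp4* passed (adjusted p = 0.00653). The artery-like minus vein-like difference (1.42, SE 1.4) and the lymphatic difference (0.31, SE 1.10) did not pass (adjusted p = 1 and 0.995), and the replicates pointed in opposite directions in both.

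*Igfbp5*, a binding protein with affinity for extracellular matrix, had the largest lymphatic difference of the 7 genes tested, and was high in lymphatic wells and low in the BEC classes. Lymphatic wells averaged 982 and 1565 CPM (1274 ± 412, SD, n = 2). Artery-like wells averaged 7.18 and 2.80 CPM, capillary-like wells 11.6 and 23.8 CPM and vein-like wells 11.2 and 1.25 CPM. Single wells held much of the BEC means: 1 of 13 capillary-like wells of replicate 2, at 261 CPM, held 84.6% of the mean, which was 3.97 CPM without it, and 1 vein-like well of replicate 1, at 330.2 CPM, held 75.9%, leaving 2.76 CPM. Without their highest wells the artery-like and capillary-like means of replicate 1 were 4.34 and 6.28 CPM, and the lymphatic means 809 and 1492 CPM. On every plate the lymphatic mean was at least 945 CPM and the BEC means were at most 56.7 CPM. After thinning, 88.2% (15 of 17, 63.6 to 98.5%) and 74.0% (74 of 100, 64.3 to 82.3%) of lymphatic wells had a read, compared with 0 to 11.5% in the BEC classes.

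The lymphatic excess of *Igfbp5* was a log2 fold change of 8.15 (SE 0.67, adjusted p = 5.77e-05, edgeR), with 6.63 and 9.09 within the replicates. It was positive in both sub-clusters in replicate 2, where the level was 2216 CPM in the 7 *Cldn11* wells and 1521 CPM in the others. In replicate 1 the *Cldn11* sub-cluster averaged 1178 CPM in 14 wells and the other 70.0 CPM in 3 wells. The unnamed cluster had mean *Igfbp5* levels of 230 and 176 CPM, of which single wells held 88.6% and 54.8%, and medians of 12.9 and 0 CPM. Artery-like and vein-like wells did not differ in the fit (0.03, SE 0.78, adjusted p = 1), nor did capillary-like wells from their mean (0.96, SE 0.70, adjusted p = 0.983). The genes most like *Igfbp5* over the wells were the lymphatic markers *Maf* (rho 0.43 and 0.53), *Prox1* (0.42 and 0.43) and *Mmrn1* (0.40 and 0.46), a description over wells; all 3 are on the list of lymphatic markers that named the class.

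*Igfbp7* was read in every BEC well and was lower in lymphatic wells. It averaged 2178 and 1447 CPM in artery-like, 2253 and 3153 CPM in capillary-like and 2284 and 2675 CPM in vein-like wells, and 285 and 368 CPM in lymphatic wells. The lymphatic medians were 220 and 76.0 CPM. In replicate 2 the 7 *Cldn11* wells averaged 33.5 CPM and the other sub-cluster 390 CPM. In replicate 1 these sub-clusters averaged 292 CPM (14 wells) and 254 CPM (3 wells). By plate, BEC means ranged from 1321 to 3214 CPM and lymphatic means from 284 to 376 CPM, so no plate overlapped. The lymphatic difference was -2.96 on the log2 scale (SE 0.35, adjusted p = 0.000984, edgeR), with -3.03 and -2.81 within the replicates. The artery-like minus vein-like difference was -0.32 (SE 0.36, adjusted p = 1) and the capillary-like difference 0.50 (SE 0.31, adjusted p = 0.983).

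The unnamed cluster also contained *Igfbp7*, at 2198 and 1029 CPM. Mural marker sums were lower in lymphatic wells (404 and 308 CPM) than in 5 of the 6 BEC groups. When only wells with a mural marker sum under 500 CPM were kept, a choice made after seeing the data that left 9 to 99 wells a group, the lymphatic difference of *Igfbp7* was -2.98 (SE 0.44, adjusted p = 0.00117, edgeR), and those of *Igfbp5* and *Igfbp3* were 8.37 (adjusted p = 1.74e-05) and -5.70 (adjusted p = 0.000234). Whether mural reads contribute to these differences was not tested. The gene most like *Igfbp7* over the wells was *Polr2b* (rho 0.61 and 0.75), which shares exon bases with it. In the 258 wells with at least 100 *Igfbp7* reads, *Polr2b* reads numbered 6.28% of them (median, 3.48 to 34.2% from the 5th to the 95th percentile), and reads of the shared bases cannot be told apart. *Sparc* (0.37 and 0.68) and *Cxcl12* (0.35 and 0.67) came next.

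**Figure D2:**
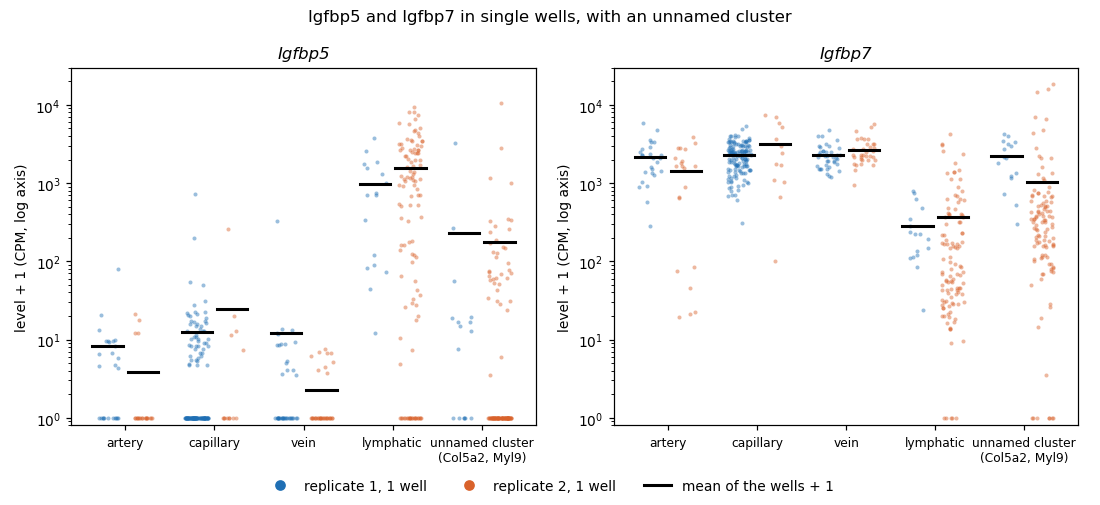
Levels of *Igfbp5* and *Igfbp7* in single wells (points, CPM + 1 on a log axis) of the 4 classes and of the unnamed cluster, with replicate 1 in blue and replicate 2 in orange; black bars are means over wells. Lymphatic wells average 982 and 1565 CPM of *Igfbp5*, above every BEC group, and 285 and 368 CPM of *Igfbp7*, below every BEC group. Levels are not scaled for gene length, so the panels are not to be compared with each other.

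The 3 lymphatic calls can be read against all genes. Of 14694 genes, 211 were called in this comparison (1.44%), 133 higher (0.905%) and 78 lower (0.531%) in lymphatic wells; of the 7 genes tested, 1 was called higher and 2 lower. The median log2 fold change of all genes was not 0, at -0.28, -0.17 and 0.26 in the artery-like, capillary-like and lymphatic comparisons, and the 3 called differences were far larger than that shift. The medians of the 7 genes were 0.03, 0.03 and -1.89. Both replicates had the same direction for 3, 3 and 4 of them.

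**Figure D3:**
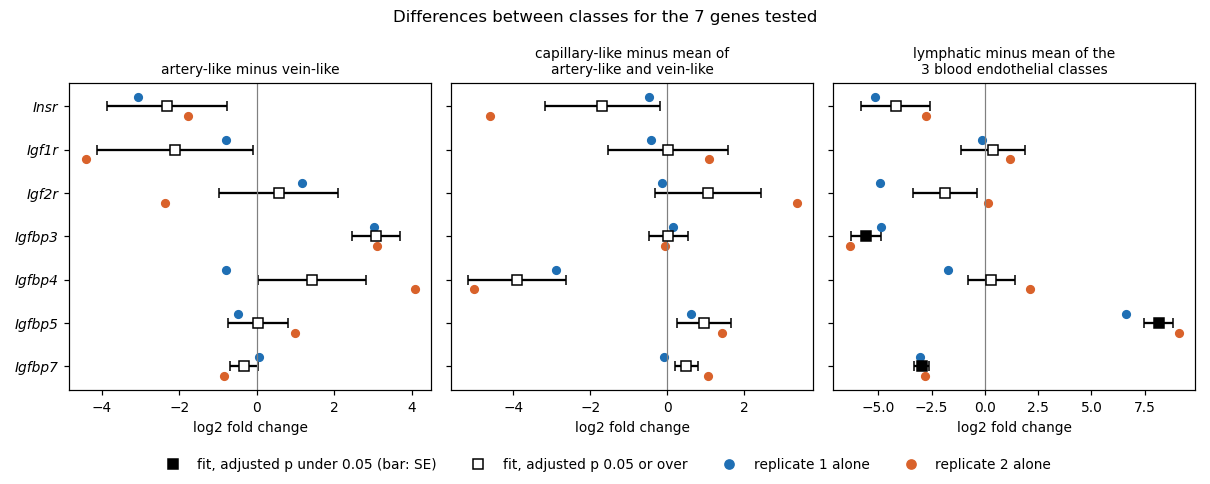
Log2 fold changes of the 7 tested genes in the 3 comparisons: squares are edgeR estimates with SE bars, filled where the adjusted p is under 0.05, and circles are the differences within replicate 1 (blue) and replicate 2 (orange). Filled squares appear only in the lymphatic panel, for *Igfbp3* (-5.58), *Igfbp5* (8.15) and *Igfbp7* (-2.96).

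Between genes, levels can be compared only per length. Per kilobase of exon, *Igfbp7* had the highest level of the 9 genes in all 8 class and replicate groups, at 1197 to 2608 CPM per kb in BECs and 236 and 304 CPM per kb in lymphatic wells. In lymphatic wells *Igfbp5* followed, at 164 and 261 CPM per kb. Of the receptors, *Insr* in vein-like wells had 9.73 and 17.4 CPM per kb, *Igf2r* ranged from 0.208 to 32.0 CPM per kb over the groups, and *Igf1r* did not exceed 1.97 CPM per kb in any group.

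**Figure D4:**
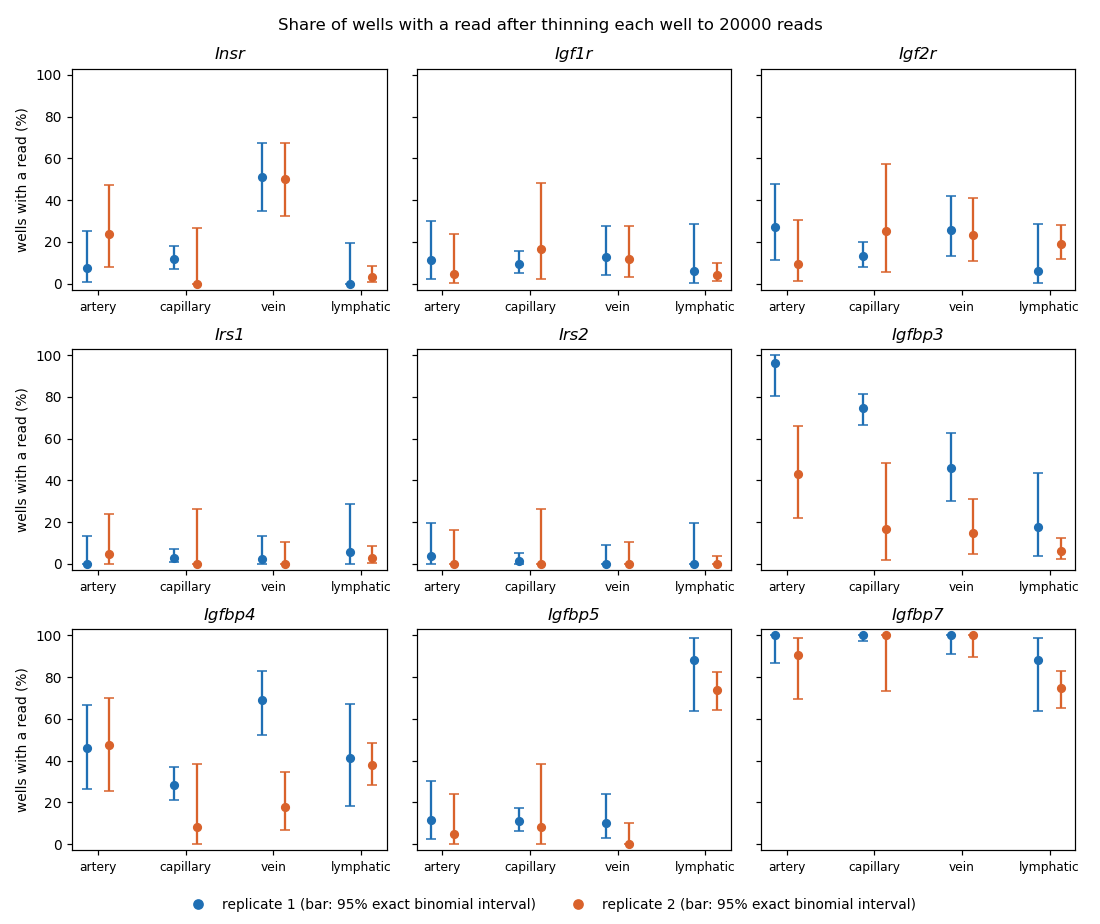
Share of wells with a read of each gene (%, circles) after thinning every well to 20000 reads, by class, with replicate 1 in blue and replicate 2 in orange; bars are 95% exact binomial intervals, which cover counting error only. *Insr* is read in 51.3% and 50.0% of vein-like wells, *Igfbp5* in 88.2% and 74.0% of lymphatic wells, and *Irs1* and *Irs2* in at most 5.88% of any group.

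The rest of the pathway was examined as a list of 46 genes (ligands, other binding proteins, their proteases and inhibitors, adaptors, kinases, phosphatases, Foxo factors and a glucose transporter), of which 35 had enough counts to be tested. None was called in any of the 3 comparisons by edgeR, with 4, 0 and 3 genes at an unadjusted p under 0.05 (5.46%, 4% and 9.34% of all genes were) and medians of -0.82, 0.20 and 0.75. DESeq2 called *Igf1*, *Igf2* and *Akt2* between artery-like and vein-like wells, where it called 3.57% of all genes with an adjusted p, and genes including *Igfbp2*, *Pik3r3* and *Pik3cb* between lymphatic wells and BECs, where it called 7.69%. Limma, which called 2.03% of all genes in the latter comparison, called *Pik3r3*; *Akt2*, *Pik3r3* and *Pik3cb* were picked for mention with their values in view.

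Among the ligands, *Igf2* had 65.2 and 315 CPM in artery-like wells and 6.79 and 4.63 CPM in vein-like wells, whereas *Igf1* had 0.379 and 0 CPM in artery-like and 78.3 and 20.8 CPM in vein-like wells. The ranges of the 2 classes did not overlap for either gene, and neither passed the test (adjusted p = 0.868 for both, edgeR). Most exon bases of *Igf2* are shared with *Gm49394* on the same strand, so its counts are uncertain. The insulin genes *Ins1* and *Ins2* and the related receptor *Insrr* were at 0.398 CPM or less in all 8 groups.

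Of the other binding proteins, *Igfbp2* had 39.8 and 0.282 CPM in lymphatic wells and at most 0.440 CPM in BECs, and *Igfbp6* had 0 and 66.6 CPM in lymphatic wells. Both values therefore came from 1 replicate each. The protease *Htra1*, which cleaves binding proteins, ranged from 2.55 to 177 CPM, and *Stc1*, a stanniocalcin, was highest in artery-like wells (257 and 172 CPM). Downstream, the adaptor *Shc1* had 225 and 229 CPM in lymphatic wells against 11.4 to 92.8 CPM in BECs (adjusted p = 0.503), and *Grb10*, an adaptor that restrains insulin and IGF1 receptor signalling, had 58.1 to 266 CPM. The PI3-kinase subunit *Pik3r1* and *Foxo3* stayed at 79.9 CPM or less in every group, while *Foxo1* had 352 and 259 CPM in lymphatic wells and 47.9 to 315 CPM in BECs.

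**Figure D5:**
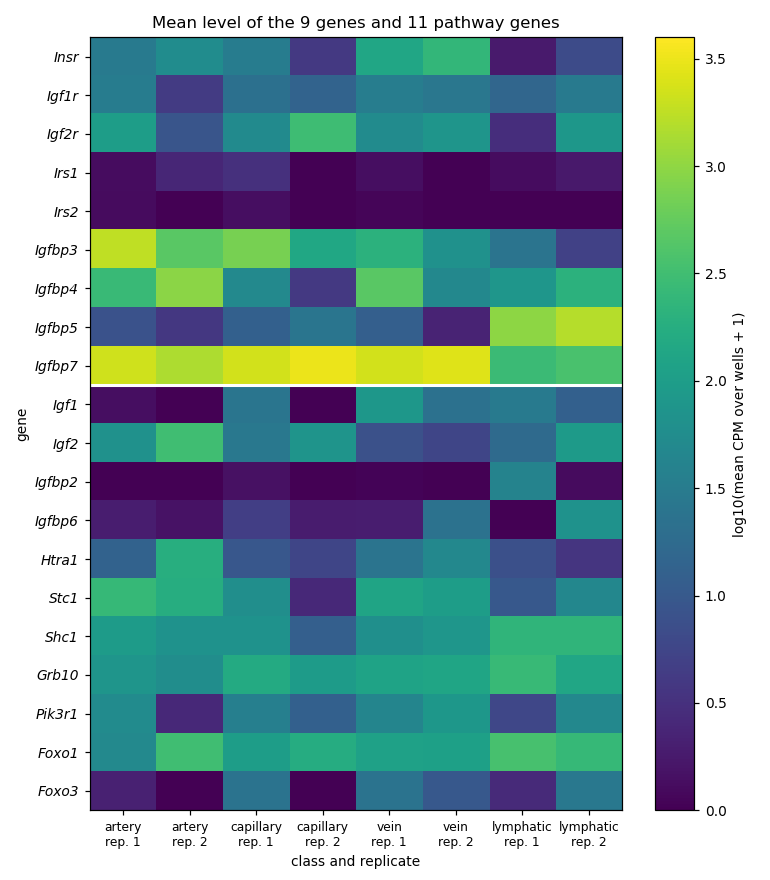
Mean levels of the 9 genes (above the white line) and of 11 further pathway genes in each class and replicate, as log10(mean CPM over wells + 1) in colour. Colours are not scaled for gene length and are to be compared along a row: *Igfbp5* is highest in both lymphatic columns (982 and 1565 CPM), *Igfbp7* is lower there than in the BEC columns, and *Irs1* and *Irs2* are dark throughout.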

How the data were processed

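The deposited tables held raw counts: per the labels and the study's methods, the authors aligned single 50-base Smart-seq2 reads to the mouse genome (GRCm38, mm10) with TopHat2 2.1.1, removed duplicates (SAMtools 0.1.18) and obtained the counts for each gene from featureCounts (Subread 1.4.6-p5), without molecular identifiers or strand. The annotation release is not given in the sources used here. Symbols came from GENCODE vM21.

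Wells with at least 600 counts, 500 to 8000 genes, 2 or more of *Pecam1*, *Cdh5* and *Kdr*, and under 100 CPM of each of *Ptprc*, *Pdgfrb* and *Kcnj8* were kept (859 of 1536). They were clustered (Leiden, resolution 0.8, 1000 variable genes, 15 components) without the 9 genes and the pathway list, and clusters were named from marker lists. Wells of the BEC classes also had to be under 100 CPM of *Lyve1* and *Prox1*, which set aside 1 well of replicate 2. The remaining 462 wells entered no class, and doublets were not called. Naming rules were settled after trial clusterings. The resolution was the lowest tried that gave all 4 classes; at 0.4 and 0.6 no artery-like or capillary-like cluster was named.

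Counts were summed per class and replicate (8 sums) and tested with edgeR 4.0.16 (quasi-likelihood, TMM, replicate as a block, genes with 10 counts in 2 sums, 3 residual degrees of freedom), Benjamini-Hochberg adjusted, at a threshold of 0.05. Alternatives used DESeq2 1.42.0, limma 3.58.1, scran 1.30.0 and other filters. The scripts were tested on simulated data. The named genes were the 9 genes, 12 pathway genes (1 of which is not reported here), and for each of the 9 up to 3 genes with Spearman's rho of at least 0.3 in both replicates. *Ins1*, *Ins2*, *Insrr*, *Akt2*, *Pik3r3* and *Pik3cb* were named outside this rule, after their values were seen. The genes and lists were chosen with earlier results of these data known. Correlations between classes of the same replicate were 0.0281 to 0.128; the block follows from classes of a replicate sharing a pool and plates. Intervals (95%) and limits for a count of 0 (3 counts) cover counting error only. Totals per plate were 74739095, 63091443, 31864976 and 35546726 reads.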

Additional observations from a re-analysis of the deposited data

Results flagged for a closer look

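Mean levels were compared over the 4 plates for 35 combinations of gene and class, and in 7 of them the highest plate stood apart from the others by Dixon's 95% criterion; chance gives about 1 in 20, and plates of a replicate share a pool. In 2 of the 7, those of *Irs2*, the other 3 plates were at 0, so that any read meets the criterion; leaving out such combinations, 5 of 33 remain. *Igf2r* reached 127 CPM on one plate in artery-like wells, against 0, 6.28 and 12.0 CPM on the others. In capillary-like wells *Igf2r* reached 771 CPM, against 2.38, 33.6 and 67.8 CPM. *Irs1* reached 4.08 CPM in capillary-like wells, where the others had 0, 0 and 0.594 CPM. *Irs2* was at 0.350 CPM in artery-like and 0.289 CPM in vein-like wells of a single plate, each from 1 read. *Igfbp5* reached 8.63 CPM in artery-like wells, against 2.34, 2.38 and 3.01 CPM, and 24.2 CPM in vein-like wells, against 0.968, 2.06 and 2.17 CPM.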

How the results depend on the processing

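The lymphatic differences of *Igfbp3* (-6.34 to -4.87), *Igfbp5* (6.63 to 9.09) and *Igfbp7* (-3.33 to -2.78) kept their direction in 15 alternative fits and within each replicate. *Igfbp5* and *Igfbp7* passed the threshold in all 15 (highest adjusted p = 0.00781 and 0.00679), and *Igfbp3* in all but the limit of 10 CPM (-6.34, adjusted p = 0.0832). Without the replicate block they were -5.15, 7.65 and -2.95, and 6, 0 and 244 genes were called in the artery-like, capillary-like and lymphatic comparisons (4, 0 and 211 with it). Counts of called genes varied widely. Artery-like against vein-like, 9 were called with DESeq2's size factors, 443 by DESeq2's Wald test, 0 by limma, 54 without the low-count filter, 41 with thinned wells, 8 with low mural sums (added after seeing the data) and 11, 18, 19 or 15 with 1 plate left out. In the capillary-like comparison, DESeq2 called 177, no filter gave 61, thinning 23, and leaving out 1 plate 3, 10, 9 or 23. In the lymphatic comparison, DESeq2 called 977, no filter gave 530, thinning 415, marker scores 393 and the limit of 10 CPM 48; at that limit 0 and 8 genes were called in the artery-like and capillary-like comparisons.

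Of 21 fold changes, 11 changed sign in an alternative fit, and 13 did so in an alternative fit or within a replicate; none of these had passed the threshold; the cause was not tested. For *Igf1r*, artery-like minus vein-like was 0.52 with low mural sums. Its capillary-like difference was -0.12 with limma, -0.0041 without the filter, -0.16 without the block, -0.27 with thinning, -0.45 at the next resolution, and -0.22 and -2.03 without a plate; its lymphatic difference was -0.96 and -0.44 without a plate and -0.79 at 10 CPM. For *Igf2r*, artery-like minus vein-like was -1.09 with limma, -0.12 without the block, -2.14 at 10 CPM, and -2.52 and -0.74 without a plate, the capillary-like difference -1.35 without a plate and -1.73 at 10 CPM, and the lymphatic difference 0.92 at 10 CPM. For *Igfbp3*, the capillary-like difference was -0.064 with limma, -0.0067 without the filter, -0.028 at 300 CPM, -0.066 with low mural sums, and -0.045 and -1.60 without a plate. For *Igfbp4*, artery-like minus vein-like was -0.083 with marker scores and -0.10 with low mural sums, and the lymphatic difference -0.084 without the block, -0.56 at 300 CPM, -0.16 with low mural sums and -0.068 without a plate. For *Igfbp5*, artery-like minus vein-like was -0.034 without the filter, -0.21 without the block, -0.19 at 300 CPM, -0.34 with thinning, -2.71 at the next resolution, -1.78 with low mural sums, and -1.30, -0.084 and -0.22 without a plate; its capillary-like difference was -0.30 at the next resolution and -0.13 with low mural sums. Of 171 levels recomputed under alternatives, 23 moved by more than 1 SD. The limit of 10 CPM left 7 sums, with no artery-like well and 1 lymphatic well in replicate 1, so the lone artery-like sum was assumed to vary like the others. Capillary-like wells of replicate 2 (13) and lymphatic wells of replicate 1 (17) were the fewest.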
